A study of Zea mays with 4 samples.

Results

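Genes that split sucrose and genes that make it were compared between kernels of the maize bt2 mutant (allele bt2-H2328) and wild-type kernels. The set was 7 genes chosen by name, the cell wall invertase incw1, the sucrose synthases sus1 and sh1, the fructokinase frk2, the glucose phosphate isomerase phi1, the sucrose phosphate synthase SPS and the sucrose phosphatase spp1. They were read by 9 of the 17620 maize probe sets with values, 3 of them for sh1 and 1 for each other gene. The study held 4 samples, 2 mutant and 2 wild type, each taken 35 days after pollination from greenhouse plants without treatment and hybridised to 1 Affymetrix array. The RNA amount was 20 µg for each sample except mutant 2, with 17 µg. The Bt2 gene specifies a small subunit of the enzyme ADP-glucose pyrophosphorylase, which supplies the glucosyl donor of starch synthesis. The labels give neither the strain background, the zygosity of the mutant kernels, nor whether the samples of a group came from separate plants.

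Sucrose is the sugar that reaches the kernel from the leaves. Invertases cut it with water into glucose and fructose, and those measured here are of the cell wall or the vacuole. Sucrose synthases cut it with UDP into UDP-glucose and fructose, the usual first step towards starch in the endosperm. Kinases and isomerases then bring the hexoses into the hexose phosphate pool, and sucrose phosphate synthase with sucrose phosphatase runs the other way and makes sucrose again. The comparison addresses which of these routes differed in transcript level in a mutant of a starch synthesis gene. Starch and enzyme activity were not measured in the data used here.

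The arrays were similar within groups. Across the 10458 probe sets kept for testing, which had a log2 value of 4 or more on at least 2 arrays, the correlation was 0.980 between the mutants, 0.986 between the wild types and 0.864 to 0.910 between groups, over probe sets that are not independent replicates. bt2, the mutated gene, read 10.13 in mutant 1, 10.12 in mutant 2, 12.67 in wild type 1 and 12.64 in wild type 2, so its level separated the groups as labelled. A large part of the array differed between the genotypes, and each count below has to be read against that: 43.2% of kept probe sets had a limma adjusted p (Benjamini-Hochberg) under the threshold of 0.05, 21.0% as higher and 22.1% as lower in the mutant. All levels are GCRMA values in log2, all differences are mutant minus wild type in log2, SE is the moderated standard error of limma, and n was 2 arrays per group. The bacterial poly-A control RNAs read 1.20 higher on the mutant arrays, and centring the arrays on them moved every difference by -1.23, with the median of all kept probe sets at -1.25 instead of -0.02. Each difference below is relative to the array-wide scale unless stated.

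The cell wall invertase incw1 rose, the sucrose synthase sus1 fell, and SPS, on the side of synthesis, fell as well. Of the 8 member probe sets that passed the filter on low values, 2 rose (incw1 and phi1), 5 fell (sus1, 1 of 2 for sh1, frk2, SPS and spp1) and 1 did not pass, the other for sh1. The median difference of these 8 was -0.80, against -0.02 over all kept probe sets. Counted by the probe set with the highest mean, 6 of the 7 genes passed, 2 higher and 4 lower, where 50.3% of 781 genes on the array passed, 20.9% higher and 29.4% lower. The groups did not overlap in 8 of the 8 kept probe sets, as in 78.5% of all kept probe sets. With the poly-A scaling, all 8 passed, incw1 as higher and 7 as lower. On that scale 8536 of the 10458 kept probe sets passed, 304 as higher and 8232 as lower. In RNA from kernels, which hold several tissues, fewer cells of a type and less RNA per cell cannot be told apart.

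**Figure D1:**
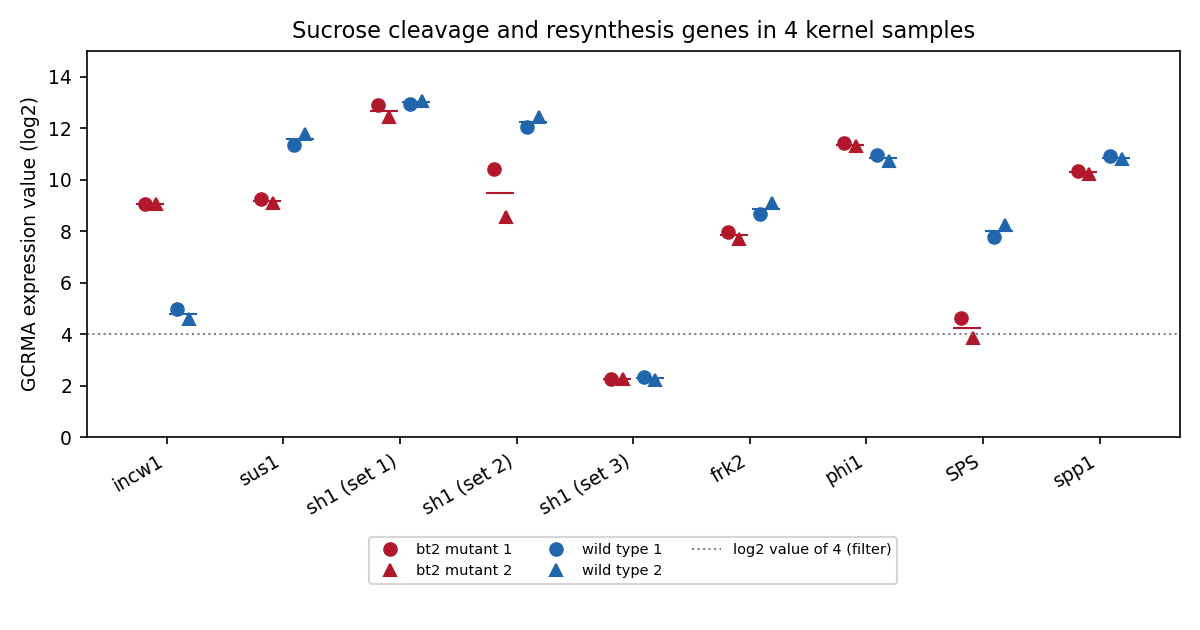
GCRMA expression values (log2, vertical axis) of the 9 probe sets of the 7 genes on each of the 4 arrays, with red for the bt2 mutant, blue for the wild type, circles for replicate 1 and triangles for replicate 2; short lines are group means and the dotted line is the filter value of 4. incw1 lies at 9.04 and 9.05 in the mutants against 4.98 and 4.59 in the wild types, and sus1 and SPS lie the other way round.

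incw1, a cell wall invertase, was the member with the largest difference. Its probe set (Zm.409.1.S1_at, gene LOC542314) read 9.04 in mutant 1, 9.05 in mutant 2, 4.98 in wild type 1 and 4.59 in wild type 2. Both mutants were far above both wild types, and the mutants lay within 0.01 of each other. The rise was 4.26 (SE 0.19, 95% interval 3.75 to 4.77), or 19.2-fold, at a limma adjusted p of 0.00528. Every mutant array exceeded every wild-type array by 4.06 to 4.46. The wild types lay close to the filter value of 4, and with a pseudocount of 16 added to the linear values the difference was 3.64, or 12.5-fold, so the fold depends on how low values are treated. Among the 10458 kept probe sets, 15 had a larger rise. On the poly-A scaling the difference was 3.03.

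No other measured invertase reached a level at which it could be compared. mn1, also called Incw2, the cell wall invertase known from the transfer cells at the kernel base, read 2.17, 2.17, 2.16 and 2.16 on mutants 1 and 2 and wild types 1 and 2. incw3 lay between 1.99 and 2.10 in its 2 probe sets, and the vacuolar invertase ivr2 between 2.09 and 2.12. These values are in the range that GCRMA gives to probe sets without detectable signal, and all of them fell to the filter, so a low level cannot be told from none. incw1 was therefore the 1 invertase gene of the 4 measured whose signal passed the filter.

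sus1, a sucrose synthase, changed in the opposite sense. Its probe set (Zm.3550.1.A1_at, LOC542247) read 9.24 and 9.10 in mutants 1 and 2 and 11.35 and 11.78 in wild types 1 and 2. The mutants were lower on both arrays, with no overlap. The fall was -2.40 (SE 0.18, 95% interval -2.88 to -1.91), or 5.26-fold, at a limma adjusted p of 0.00683. Of the kept probe sets, 241 had a larger fall. On the poly-A scaling the difference was -3.63.

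sh1, the sucrose synthase that is the main one of starchy endosperm, gave readings that disagreed between its 3 probe sets, all assigned to LOC542365. The first (Zm.6977.1.S1_at) read 12.91 and 12.44 in mutants 1 and 2 and 12.94 and 13.05 in wild types 1 and 2. Mutant 1 was within 0.03 of wild type 1, and the difference of -0.32 (SE 0.18, 95% interval -0.81 to 0.17) did not pass, with a limma adjusted p of 0.218. The second (Zm.6977.5.S1_a_at) read 10.40 in mutant 1, 8.53 in mutant 2, 12.04 in wild type 1 and 12.42 in wild type 2. Here both mutants were lower, but they lay 1.87 apart, a gap exceeded by 0.841% of kept probe sets, where the median gap between the mutants was 0.20. This probe set fell by 2.77 (SE 0.65, 95% interval -4.50 to -1.03), with a limma adjusted p of 0.0308, and the difference was -3.70 without mutant 1 and -1.83 without mutant 2, neither of which passed. Its call was also lost without the filter on low values, at an adjusted p of 0.0834. The third (Zm.6977.5.A1_at) read 2.24, 2.25, 2.32 and 2.23 and did not pass the filter. The annotation gives it the same source sequence as the second, which read at least 8.53 on each array. Their identifiers differ in the letters A and S, which mark the orientation of the design, so the readings need not measure the same strand. The probe sets of sus1, SPS and spp1 carry the letter A as well, and their orientation was not checked here.

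A further 3 probe sets carry the same cluster number as those of sh1 in their identifiers but have no gene in the annotation used here, and were not counted as sh1. They were looked up after the sh1 values had been seen. Zm.6977.2.A1_at read 13.25, 13.24, 13.24 and 13.23 on mutants 1 and 2 and wild types 1 and 2, a difference of 0.01 (SE 0.08). Zm.6977.3.A1_at differed by 0.22 (SE 0.11) and Zm.6977.4.A1_at by 0.02 (SE 0.11). None of the 3 passed limma, with adjusted p values of 0.930, 0.189 and 0.900, and with the poly-A scaling they read -1.22, -1.01 and -1.21, close to the shift of that scaling, and all 3 passed as lower.

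The 5′ relative to the 3′ signal, which can reflect the state of the RNA, differed between the groups in some control genes. This measure can bear on separate probe sets of 1 gene. In 3 maize control genes, the value of the 5′ probe set relative to the 3′ probe set was -2.25 and -2.77 in mutants 1 and 2 and -0.93 and -1.0 in wild types 1 and 2 for Gapdh. For ubiquitin it was -1.97 and -1.68 against -1.20 and -1.40, and for cyclophilin -2.27 and -1.49 against -1.19 and -1.59, where the groups overlapped. The 5′ signal was thus relatively lower in the mutants for Gapdh and ubiquitin. Whether this came from the state of the RNA or from the transcripts of these genes was not tested. The end of sh1 that each probe set reads is not given here, and the part of this difference in the disagreement was not tested.

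sus2, the third sucrose synthase gene, belongs to the wider pathway list and showed no shift between groups beyond its spread. It read 10.39 and 10.64 in mutants 1 and 2 and 10.70 and 10.25 in wild types 1 and 2. The groups overlapped, and the difference was 0.04 (SE 0.20, 95% interval -0.49 to 0.57), with a limma adjusted p of 0.884, against -1.19 on the poly-A scaling. Of the sucrose synthases, sus1 thus fell, sh1 passed in 1 of its 2 probe sets above the filter, and sus2 did not pass.

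**Figure D2:**
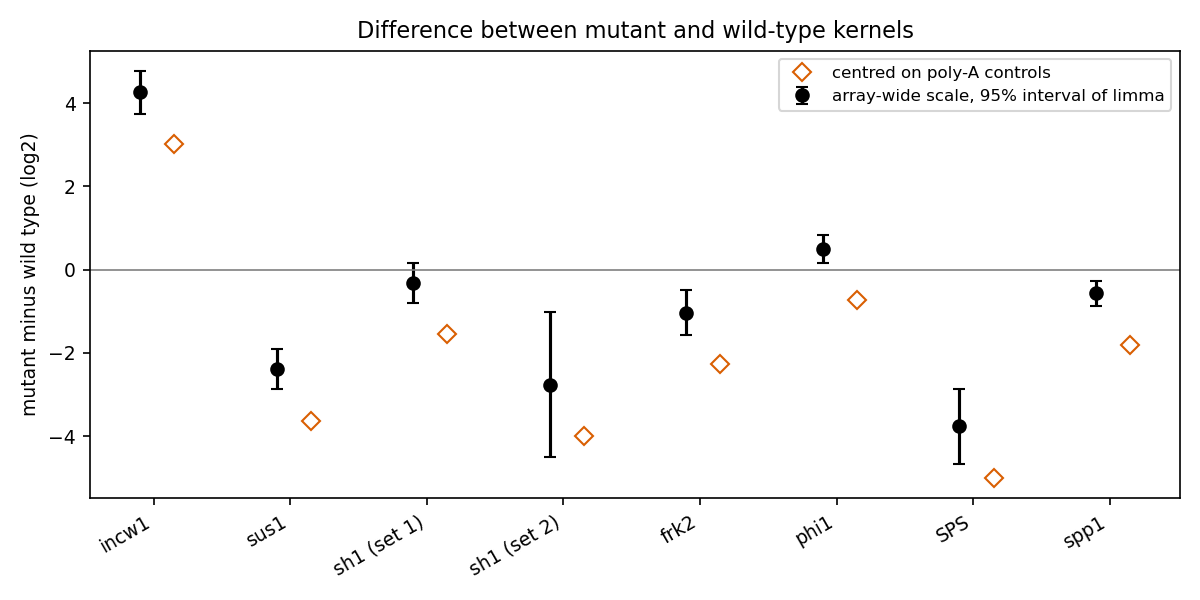
Mutant minus wild type (log2, vertical axis) for the 8 member probe sets that passed the filter; black points are the array-wide scale with the 95% interval of limma and open diamonds are the values after centring on the poly-A controls. incw1 stays above 0 on both scales, at 4.26 and 3.03, while phi1 turns from 0.50 to -0.73.

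Within an array, the difference between 2 genes does not depend on the scale of that array. Single member genes were therefore also set against each other this way. Such a pair does not stand for a whole route, and sus2, which differed by 0.04, was not paired. The change in a pair follows from the changes of its 2 genes. Pairing a gene that rose with one that fell is therefore no independent evidence. The lower 5′ signal of the mutants, seen for Gapdh and ubiquitin, need not cancel within a pair. Since probe sets differ in brightness, what can be compared is how the difference within a pair changed between groups, not its level. incw1 minus sus1 was -0.20 and -0.05 in mutants 1 and 2 and -6.37 and -7.19 in wild types 1 and 2. The mutant mean lay 6.66 above the wild-type mean on the log2 scale, or 101-fold, the same with and without the poly-A scaling, and 6.003 above it with the pseudocount of 16. An exact two-sided permutation test gave p = 0.3333, the smallest that this test allows with 2 arrays against 2, so it cannot reach 0.05 here.

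The change was smaller against the first sh1 probe set and larger against the second. incw1 minus sh1 was 4.58 higher in the mutants with the first and 7.03 higher with the second, without overlap in either. sh1 minus sus1 was 2.08 higher in the mutants with the first sh1 probe set, at 3.67 and 3.34 against 1.59 and 1.27, with no overlap. With the second it read -0.37 and the groups overlapped, at 1.16 and -0.57 against 0.69 and 0.64. Whether the 2 endosperm sucrose synthases differed in their change thus depended on the sh1 probe set. All 7 such pairs were chosen with earlier results of these data known, and those with SPS after seeing the data. The exact p of the permutation test was 0.3333 for 6 and 1 for the overlapping pair. After Benjamini-Hochberg adjustment these were 0.389 and 1.

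**Figure D3:**
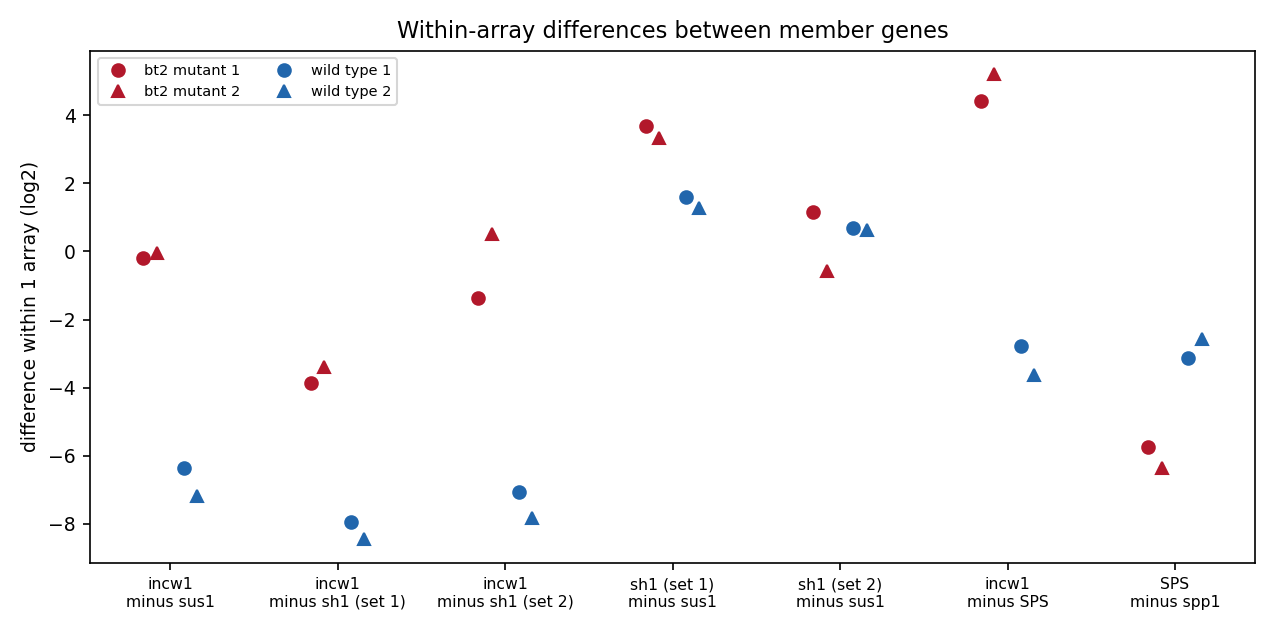
Difference between 2 member probe sets within 1 array (log2, vertical axis) for 7 pairs, with red for the bt2 mutant, blue for the wild type, circles for replicate 1 and triangles for replicate 2. Mutant and wild-type arrays are apart in 6 pairs and overlap for the second sh1 probe set minus sus1; the position of a pair on the axis reflects probe brightness and has no meaning of its own.

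The genes that take up the products of cleavage changed by less than incw1 and sus1. frk2, a fructokinase, which phosphorylates the fructose that both routes release, read 7.97 and 7.70 in mutants 1 and 2 and 8.66 and 9.07 in wild types 1 and 2 (Zm.711.1.S1_at, LOC542108). The mutants were lower without overlap, and the fall was -1.03 (SE 0.20), or 2.04-fold, at a limma adjusted p of 0.0203. The second fructokinase gene, frk1, read 8.78, 8.74, 8.76 and 8.55 on the same arrays. Its groups overlapped, and its difference of 0.11 (SE 0.13, 95% interval -0.25 to 0.46) did not pass, with a limma adjusted p of 0.555, and read -1.13 on the poly-A scaling. Whether the 2 fructokinase genes differed in their change was not tested.

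phi1, the cytosolic isomerase that interconverts glucose phosphate and fructose phosphate, read 11.40 and 11.29 in mutants 1 and 2 and 10.96 and 10.73 in wild types 1 and 2 (Zm.3318.1.S1_at, LOC542313). The mutants were higher on both arrays. The rise was 0.50 (SE 0.13, 95% interval 0.16 to 0.84), or 1.41-fold, at a limma adjusted p of 0.0359, and turned to -0.73 with the poly-A scaling, where it passed as lower. The call was lost without the filter on low values (adjusted p 0.0597) and without a mean-variance trend (0.0582). A difference of this size was common, since 52.6% of kept probe sets differed by more.

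On the side of synthesis, both measured steps fell. SPS, a sucrose phosphate synthase, which makes sucrose phosphate from UDP-glucose and fructose phosphate, read 4.62 and 3.84 in mutants 1 and 2 and 7.77 and 8.22 in wild types 1 and 2 (Zm.26.1.A1_at, LOC542711). Mutant 2 lay under the filter value and mutant 1 just above it, so the mutant level is near the detection limit and the size of the difference is not secure. SPS fell by 3.77 (SE 0.34, 95% interval -4.67 to -2.86), or 13.6-fold, at a limma adjusted p of 0.00760. With the pseudocount of 16 the difference was -2.95, or 7.73-fold, and the probe set was not tested where a value of 4 or more was required on all 4 arrays. Of the kept probe sets, 45 had a larger fall. On the poly-A scaling the difference was -4.99.

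spp1, a sucrose phosphatase, which removes the phosphate in the last step, read 10.35 and 10.20 in mutants 1 and 2 and 10.90 and 10.79 in wild types 1 and 2 (Zm.2613.1.A1_at, LOC541868). Its fall was -0.57 (SE 0.11, 95% interval -0.87 to -0.27), or 1.48-fold, at a limma adjusted p of 0.0209, and 47.7% of kept probe sets differed by more. SPS minus spp1 was -5.73 and -6.36 in mutants 1 and 2 and -3.13 and -2.57 in wild types 1 and 2, without overlap. No size is drawn from this pair or from incw1 minus SPS, since the SPS values of the mutants lie at the filter value. SPP2, a second sucrose phosphatase gene, looked up after the annotation was seen, read between 1.90 and 1.92 on the 4 arrays.

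**Figure D4:**
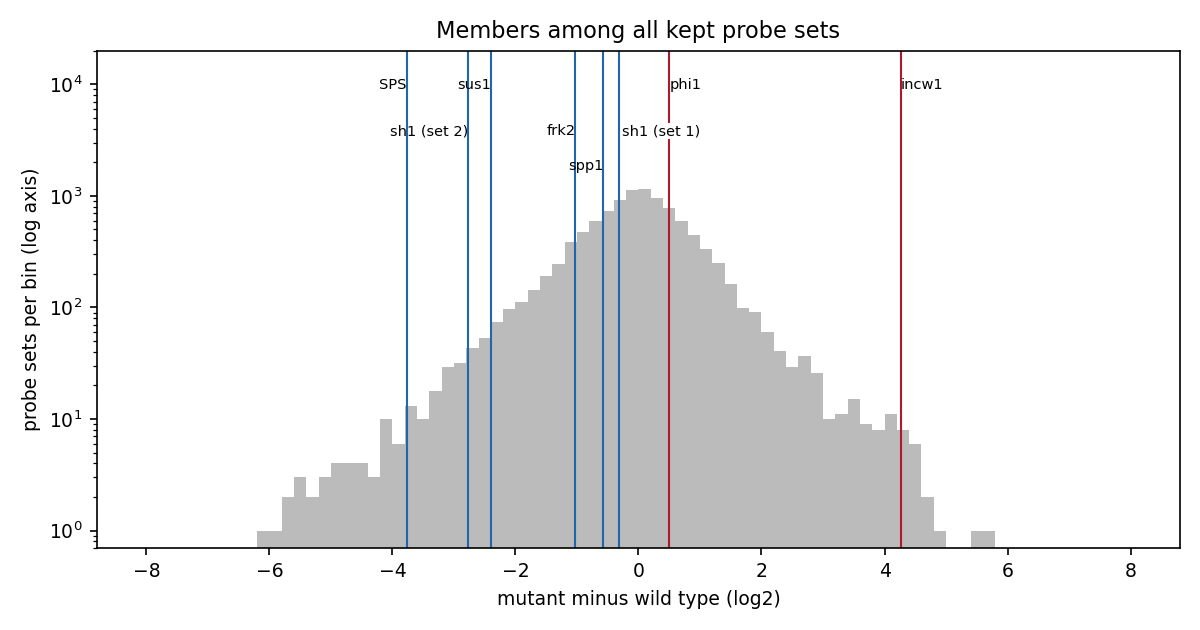
Number of kept probe sets (vertical axis, log scale) by mutant minus wild type (log2, horizontal axis, in bins of 0.20), over 10458 probe sets, with vertical lines at the 8 member probe sets above the filter, red for a difference above 0 and blue for one below 0. incw1 at 4.26 and SPS at -3.77 lie in the tails, while phi1, spp1 and the first sh1 probe set lie in the bulk.

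The wider list of pathway genes gave few further readings. Of its 29 symbols, 7 genes with 9 probe sets were found in the annotation, namely mn1, incw3, ivr2, sus2, frk1, the hexose transporter mst1 and the sucrose transporter sut1. Only frk1 and sus2 passed the filter, and neither passed the limma test on the array-wide scale, while both passed as lower on the poly-A scaling, with limma adjusted p values of 0.000351 and 0.000108. sut1 read 2.47, 2.35, 2.96 and 2.45 and was under a value of 4 on each array. 1 of the 2 mst1 probe sets read 3.66 and 4.16 in mutants 1 and 2 and 2.49 and 2.73 in wild types 1 and 2, around the detection limit, and the other lay between 2.16 and 2.19. Symbols for hexokinase, UDP-glucose pyrophosphorylase and phosphoglucomutase genes were searched for as well. None was among these 7 genes, so those steps have no reading here.

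**Figure D5:**
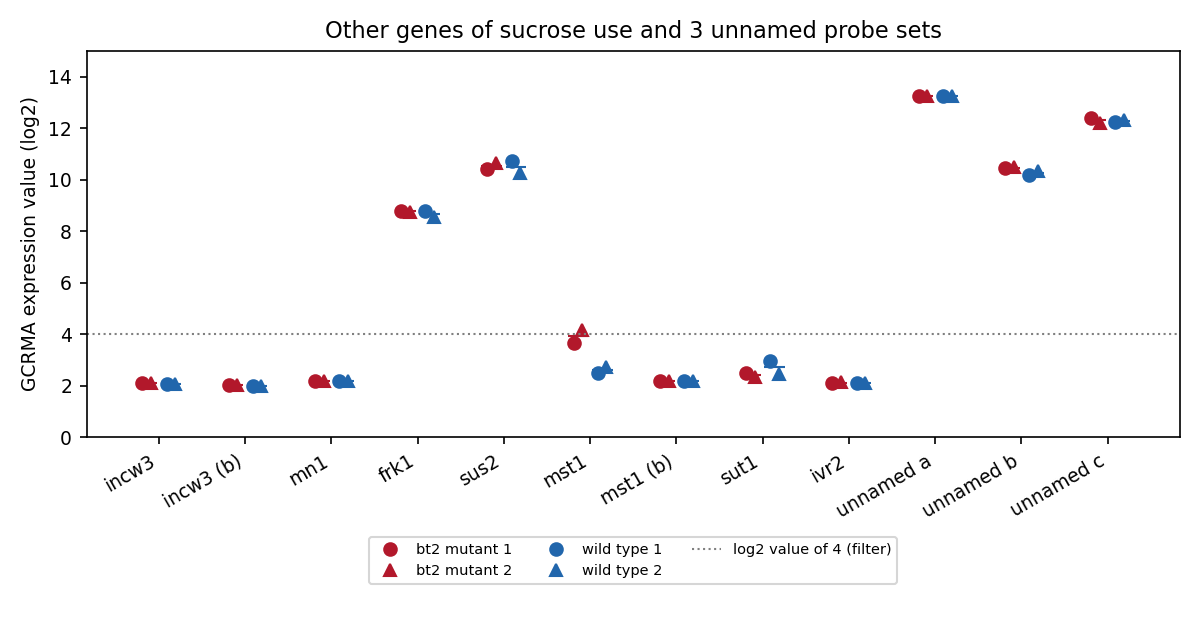
GCRMA expression values (log2, vertical axis) on the 4 arrays for the 9 probe sets of the wider list, where (b) marks a second probe set of a gene, and for the 3 probe sets without a gene that share the sh1 cluster number (unnamed a, b and c); colours, symbols and lines are those of the plot of member values. The invertases mn1, incw3 and ivr2 lie near 2 on all arrays, and frk1 and sus2 lie above the filter value with overlapping groups.

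Among 685 other named genes with a kept probe set, those nearest to incw1 by the Euclidean distance of their 4 values, each taken from its own mean, were MRP1 (also listed as mrpa1), an ABC transporter, at 0.23, the safener-induced gene In2-1 at 0.51 and the alternative oxidase aox3 at 0.53. MRP1 differed by 4.15. In2-1 and aox3 were under a value of 4 in both wild types, so they were kept through the mutants, were at least 17.4-fold and 13.6-fold higher there against that value, and their distances rest partly on wild-type values under the filter. Nearest to sus1 were C4ppdkZm1, a pyruvate phosphate dikinase, at 0.18, the cellulose synthase CesA-9 at 0.26 and the glutathione S-transferase gst10 at 0.29, with differences of -2.33, -2.15 and -2.18. With 4 arrays, such likeness reflects mainly the size and sign of the group difference.

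Markers of some kernel tissues differed between the genotypes, to be read against the 50.3% of all genes that passed, 20.9% higher and 29.4% lower. In the basal transfer layer list, 4 of 6 genes passed the filter and these 4 fell, while mn1 and betl2 were under 4 on all arrays. The summed linear value was 76.5 to 111 in the mutants and 527 to 894 in the wild types. The mutant sum is low for 6 genes. Single genes of this list may thus lie near the filter value in the mutants and have been kept through the wild types. Of 7 starchy endosperm genes, which include bt2 itself and were all above the filter, 5 fell, with sums of 36260 to 37680 in the mutants and 59280 to 59520 in the wild types. Of 5 embryo genes, 4 were above the filter, of which 1 rose and none fell, with sums of 82640 to 87420 against 67580 to 75100 and lec1 under 4 on all arrays. In the list for pericarp and maternal tissue (bde1, fie2, p1 and zag2), 3 of 4 genes were above the filter and 2 fell. The sums were 425 to 585 in the mutants against 1051 to 1055 in the wild types. p1 was under 4 throughout, so this reading rests on bde1, fie2 and zag2, whose tissue was not checked here. Of 4 aleurone genes, 2 were above the filter, 1 rising and 1 falling. Their sums were 906 to 1072 against 1224 to 1245, with c1 and cr4 under 4 throughout. The part of these markers in the differences of the sucrose genes was not tested.

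Which calls passed depended on the arrays included. Without mutant 1, mutant 2 or wild type 2, no member and no other probe set passed limma, although 4523, 4617 and 3633 kept probe sets and 7, 5 and 5 of the 8 member probe sets had an unadjusted p under 0.05. When wild type 1 was left out, incw1, sus1 and SPS passed. The lone sample of a group is then assumed to vary like the pair of the other. The size of the 3 large differences depended little on any 1 array, at 4.07 to 4.46 for incw1, -2.61 to -2.18 for sus1 and -4.16 to -3.38 for SPS.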

How the data were processed

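RNA from 4 maize kernel samples was read on 1-colour Affymetrix arrays, 1 array per sample. The deposited values are log2 expression values per probe set, made by the authors. The submitters' processing notes name GCRMA, which adjusts background from probe sequences, normalizes arrays and combines the probes of a set. That the values are in base 2 was judged from their range of 1.31 to 15.44. Neither the GCRMA version nor a joint normalization of the arrays is stated in the sources used here. With a joint one, a change of total messenger content would not show.

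The table had 17734 rows, with 113 for array controls and 1 empty. Gene names rest on an old platform annotation, joined by Entrez identifier to RefSeq (Zm-B73-REFERENCE-NAM-5.0), with 1452 probe sets having 1 gene, 1 several and 16168 none. Of those with 1 gene, 1377 matched. Members were found by symbol or synonym, case ignored. Symbols of the tps kind, which stand for terpene synthases in maize, and the homonyms of glb1 and mrp1 were left out of the lists. The members, lists and tests were chosen with earlier results of these data known. The named genes are all member probe sets, bt2, the measured genes of the wider list and the 3 nearest genes to incw1 and to sus1.

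Probe sets with a log2 value of 4 or more on at least 2 arrays were kept, which removed 7162. Groups were tested in R 4.3.3 by limma 3.58.1 (two-sided, lmFit and eBayes with a trend of variance on mean), adjusted over all kept probe sets at a threshold of 0.05. The fit was tested on simulated data. Alternatives changed the filter, normalization, variance model and pseudocount (16 on the linear scale), added a replicate block or left out each array. Figures used Python 3.11.15 and matplotlib 3.10.9. Precision is limited by the 4 arrays, and since separate plants are not stated, each p-value measures only the spread among these samples, possibly a technical one.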

Additional observations from a re-analysis of the deposited data

Results flagged for a closer look

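The poly-A control probe sets were left out of the tests of maize genes and were used for the poly-A scaling. Their median difference was 1.20 in log2, with 36 of 36 higher in the mutant, while 27 hybridisation control probe sets had a median difference of 0.14.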

How the results depend on the processing

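The 4514 calls over all probe sets (2199 higher, 2315 lower) became 8536 with the arrays centred on the poly-A controls (304 higher, 8232 lower) and 5262 without a filter (3484 higher, 1778 lower), and ran from 0 to 1195 when 1 array was left out. The 7 calls among member probe sets ran from 0 to 3 with 1 array left out, and stayed between 5 and 8 under the other alternatives. Centring on the poly-A controls turned phi1 to -0.73, frk1 to -1.13, sus2 to -1.19 and the 3 unnamed probe sets to -1.22, -1.01 and -1.21, a shift that follows from its construction. All of these passed there as lower, as did the first sh1 probe set at -1.55. With 1 array left out, sus2 ran from -0.185 to 0.265 and Zm.6977.4.A1_at from -0.085 to 0.125, neither past the threshold. The replicate numbers do not pair the samples in the labels, and the deviations of same-numbered arrays correlated at 0.02 over probe sets. With the replicate block, 3444 probe sets and 5 member probe sets passed. The second sh1 probe set and frk2 were lost there, at adjusted p values of 0.0641 and 0.0574. incw1 minus sus1 kept its direction, at 6.003 with a pseudocount, 6.72 after quantile normalization and 6.25 to 7.07 with 1 array left out. With the replicate block the value was 6.66, which was fixed in advance, since the block is balanced between the groups. With the pseudocount, incw1 was 3.64 and SPS -2.95, both past the threshold. Signal near a log2 value of 2 limits what can be said of mn1, incw3, ivr2 and SPP2.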
